A study of Mus musculus with 2 samples.

Results

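Reads of 11 to 15 nt are the shortest RNA pieces kept in small RNA libraries from WT and Hsp90α KO fetal mouse testes, and they were taken as every sequence of these lengths in the tables of read counts. The WT table held 62172 such sequences of 789404 in all, and that of KO held 63041 of 512076. Together they were 100946 of the 1132769 different sequences found in either library. Each library was made from total RNA of 20 whole testes, pooled by genotype, from C57BL/6 fetuses at embryonic day 16.5 after natural mating, so that there was 1 library per genotype, no replicate check and no p-value. Intervals in brackets are 95% intervals that cover the counting of reads only, and PCR copies of 1 molecule are not independent reads. Whole testes hold germ cells and somatic cells together, and the KO label names Hsp90-alpha only.

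Argonaute and PIWI proteins hold miRNAs and piRNAs along their whole length, which shields these RNAs and gives them their narrow size ranges. Pieces shorter than that are usually seen as breakdown or cleavage products of longer RNAs, and rRNA and tRNA, the most abundant RNAs of a cell, are their textbook sources. Hsp90α, encoded by Hsp90aa1, is a chaperone that assists many client proteins, among them those that load small RNAs. A sequence of this length can occur by chance in many transcripts, so each short sequence was first set against the longer sequences of its own library. A longer sequence with 1000 or more reads was called a parent, and a short sequence was classed as a prefix, a suffix or an inner part of a parent, in this order, or as none.

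The most abundant of these sequences formed ladders, sets of sequences that share 1 end and differ in length by single bases at the other. The families built on both ladders shown first held 10.9% of the very short reads in WT and 12.8% in KO. In the ladder with most reads at a fixed 3′ end, the shared last 11 bases are shown in capitals, and each form is a suffix of the 16-nt parent on the last line.
11 nt: CGTTCCCGTGG
12 nt: aCGTTCCCGTGG
13 nt: caCGTTCCCGTGG
14 nt: ccaCGTTCCCGTGG
15 nt: accaCGTTCCCGTGG
16 nt, parent: caccaCGTTCCCGTGG

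In the ladder with most reads at a fixed 5′ end, the shared first 11 bases are in capitals. The last line is a 23-nt parent that begins with the same bases and then runs on differently.
11 nt: CCCGCGGGGCC
12 nt: CCCGCGGGGCCc
13 nt: CCCGCGGGGCCcg
14 nt: CCCGCGGGGCCcga
15 nt: CCCGCGGGGCCcgaa
23 nt, parent: CCCGCGGGGCCccgtcgtccccc

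A further pair of parents is shown, since a single short form of one was abundant and short forms of the other were almost lacking. In the 29-nt sequence the last 15 bases, themselves an abundant member, are in capitals. In the 22-nt Mir10b sequence, the most abundant miRNA here, capitals mark the first 14 bases, its main short form.
29 nt, parent: cccggggctacgccTGTCTGAGCGTCGCT
Mir10b, 22 nt: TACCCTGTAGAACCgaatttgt

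The very short reads numbered 551325 in WT, 8.60% of the library (8.58 to 8.62), and 565101 in KO, 10.1%. The whole libraries held 6409305 and 5589326 reads, of which 2523084 and 2561491 were miRNA reads, that is, exact sense matches of 16 nt or more inside an annotated hairpin. Counts were normalized to these miRNA totals. The KO/WT ratio of the very short reads was then 1.01 (1.006 to 1.013), against 0.675 for all reads of 24 to 33 nt, the size range of piRNAs. This ratio near 1 rested on the normalizing total, since division by all reads of the library gave 1.18 and division by structural RNA reads of 16 to 23 nt gave 0.991. Within the tissue check, the 6 germ cell miRNAs of the miR-290 cluster each had more reads in KO, from Mir290a with 17 in WT and 23 in KO to Mir295 with 1045 and 1428. The gonadal Mir202 was read 5037 and 5466 times, and the red cell miRNA Mir451a 578 and 495 times. Mesenchymal miRNAs went in both directions, with 89553 and 73755 reads for Mir143 and 61998 and 83289 for Mir199a-1, and their part in the results was not tested. Sense reads particular to Hsp90aa1 numbered 2 in WT and 10 in KO, beside 32 and 37 for its paralog Hsp90ab1. The deleted part of the gene is not given in the sources used here, so these few fragments did not check the genotype.

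Reads grew more frequent with length. At 11 nt there were 84090 reads in WT and 90906 in KO, at 12 nt 87082 and 91640, and at 13 nt 101151 and 106240. At 14 nt the counts were 127926 and 129351, and at 15 nt 151076 and 146964. Just outside the range, at 16 nt, they were 161956 and 161823. No break in the length profile separated 15 from 16 nt.

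The KO/WT ratio was lower at longer lengths. It was 1.06 (1.05 to 1.07) at 11 nt, 1.04 at 12 nt, 1.03 at 13 nt, 0.996 at 14 nt and 0.958 (0.951 to 0.965) at 15 nt. The values at 12 and 13 nt differed by less than their intervals. Divided by all reads of the library, the ratio at 15 nt was 1.12, so that its side of 1 rested on the normalizing total. The ratio at 15 nt was 0.900 of that at 11 nt (0.889 to 0.911), a quotient in which the normalizing total cancels. Without both leading ladders, defined by their shared 11 bases, the quotient was 0.901. The single sequences showed the same order, with median log2 ratios of 0.04 at 11 nt, -0.04 at 13 nt and -0.14 at 15 nt among those with 100 or more reads. The 5th to 95th percentile at 15 nt ran from -0.51 to 0.37, which is wider than the shift between lengths.

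In base composition the very short reads differed from miRNAs. G and C made up 81.2% of the bases of 11-nt reads in WT, 73.2% at 13 nt and 68.7% at 15 nt, against 64.9% at 16 nt and 45.1% at 22 nt. C was the first base of 53.1% of WT reads and 55.5% of KO reads of 11 to 15 nt, and the last base of 51.3% and 50.0%. Among WT reads of 20 to 23 nt, T was the first base of 63.8% and C of 13.8%. Sequences made of G and C alone took 7.21% of the very short reads in WT (39767 reads) and 8.89% in KO (50237 reads). Members of 90 to 100% G and C with 100 or more reads summed to a KO/WT ratio of 1.11 (1.10 to 1.12), and to 1.04 (1.03 to 1.05) without both leading ladders. The 5 lower classes of G and C content gave 0.961, 0.999, 0.9753, 1.02 and 0.998 in rising order, and so showed no trend. The median log2 ratio was -0.01 in the highest class and between -0.09 and -0.05 in the others.

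A small core of sequences held much of the reads above a wide spread of rare ones. The 10 most abundant sequences took 12.4% of the very short reads in WT and 13.7% in KO, and the 100 most abundant took 27.9% and 30.2%. Of the different sequences, 66.6% in WT and 66.5% in KO were read once, yet these made up 7.52% and 7.42% of the reads. The 24267 sequences found in both libraries were 24.04% of all different ones and held 92.3% of WT reads and 92.2% of KO reads. Most reads thus fell on shared sequences. Most different sequences of each library were read once. Whether the rare ones differed between the libraries beyond the sampling of reads was not tested.

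Most of the very short reads were not part of any abundant longer sequence. The class none held 76.1% of reads in WT (76.0 to 76.2) and 76.3% in KO (76.2 to 76.4), suffixes 13.2% and 13.03%, prefixes 9.40% and 10.1%, and inner parts 1.34% and 0.600%. Of the different sequences, 97.7% and 98.2% had no parent. The reads with a parent were nevertheless concentrated in very few of the possible sequences. All 387 WT parents together contain 1665 different stretches of 11 bases, which are 0.0397% of those possible, and 20.6% of WT 11-nt reads fell on them. At 15 nt the parents contain 0.000115% of the possible sequences and took 22.6% of the reads. Lowering the parent minimum to 100 reads left 27.5% of WT reads and 28.7% of KO reads without a parent, and a minimum of 10 reads left 9.09% and 9.39%. The order of the classes turned with it. From 100 reads up, prefixes held 45.3% in WT and 39.8% in KO, against 21.9% and 26.7% for suffixes, and from 10 reads up prefixes held 83.1% and 81.4%. A sequence that fits both classes was counted as a prefix. How much of the turn came from this rule was not tested at the lower minimums. At the main minimum, taking suffixes first gave them 16.1% in WT and 16.5% in KO, and left prefixes 6.52% and 6.65%. A class thus depends on this rule and describes the most abundant parents only. The most abundant longer sequence under the minimum had 996 reads in WT and 999 in KO.

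With the minimum of 1000 reads, suffixes and prefixes were distributed differently over length. Suffixes took 6.25% of WT reads at 11 nt, 13.4% at 13 nt and 19.7% at 14 nt, the last being the length of the leading suffix. Prefixes took 13.1% of reads at 11 nt and 6.45% at 15 nt. Families sharing their last 11 bases and holding all 4 lengths from 12 to 15 nt contained 81.6% of the WT reads of these lengths and 82.6% of the KO reads, and families sharing their first 11 bases 68.2% and 69.7%. A sequence can belong to a family of each kind.

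By class, the KO/WT ratio was 1.09 (1.07 to 1.10) for prefixes, 0.997 (0.987 to 1.01) for suffixes and 1.01 for none. With parents of 100 or more reads the ratio of prefixes was 0.887, so that its direction rested on the parent minimum. For inner parts it was 0.453 (0.434 to 0.471), from 7374 reads in WT and 3388 in KO. This low value came from the parent minimum. The 21-nt sequence ataaggattggctctaagggc was read 1084 times in WT and 780 times in KO, so that it was a parent in WT alone. Its inner part taaggattggctc was read 590 times in WT and 648 times in KO, and its inner part aaggattggctc 575 and 600 times. In the same way atgtcggctacc, with 613 and 681 reads, lay inside the WT parent cgatgtcggctaccc, which had 1066 reads in WT and 955 in KO. With 1 list of parents that had 1000 reads in each library, the ratio of inner parts was 0.990, that of prefixes and suffixes together with them 1.13, and that of none 0.978.

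The ladder on the 3′ end CGTTCCCGTGG led the suffixes. Its 14-nt form was read 14803 times in WT and 15783 times in KO, a ratio of 1.05 (1.03 to 1.07). The 13-nt form was read 4845 and 6403 times (1.30, 1.25 to 1.35), the 15-nt form 2829 and 3085 times (1.07), the 11-nt form 1626 and 1802 times (1.09) and the 12-nt form 347 and 394 times (1.12). Their 16-nt parent itself had 24335 reads in WT and 30481 in KO, a ratio of 1.23 (1.21 to 1.25). The 14-nt form thus stood far above both of its neighbours in each library, and all 6 ratios were above 1, although the interval of the 12-nt form (0.966 to 1.30) held 1. The first 5 and last 5 bases of the 14-nt form are reverse complements of each other. Reads with such ends made up 11.6% of WT reads and 12.3% of KO reads at 14 nt, nearly all from this sequence, and 0.0450% to 0.188% of WT reads at the other lengths from 11 to 15 nt. Forms that share its other end were rare, and prefixes of the same parent summed to 181 reads in WT and 261 in KO.

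The ladder on the 5′ end CCCGCGGGGCC led the prefixes. Its 15-nt form was read 14808 times in WT and 16222 times in KO (1.08, 1.06 to 1.10) and was the most abundant very short sequence of both libraries. Its shorter forms had higher ratios. The 14-nt form was read 4805 and 6529 times (1.34, 1.29 to 1.39), the 13-nt form 1745 and 2911 times (1.64, 1.55 to 1.74), the 12-nt form 3643 and 4896 times (1.32) and the 11-nt form 7052 and 9048 times (1.26). In both libraries the 13-nt form was the least frequent, and the 15-nt form had no parent of its own. Suffixes of the 15-nt form summed to only 141 reads in WT and 217 in KO. The forms of this ladder thus differed at the 3′ end, while those of the one above differed at the 5′ end. The forms of 12 nt or less are also the start of the 23-nt parent with the same first bases, which was read 8700 and 10375 times (1.17), and reads of 11 or 12 nt cannot be told apart by source. All very short sequences with this start summed to 35217 reads in WT and 44221 in KO (1.24, 1.22 to 1.25).

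The 29-nt sequence shown above, with 14327 reads in WT and 18702 in KO (1.29, 1.26 to 1.31), was represented among the very short reads by its last 15 bases. This suffix, tgtctgagcgtcgct, was read 9866 times in WT and 8712 times in KO, and its ratio of 0.870 (0.845 to 0.895) was opposite in direction to that of its parent. The neighbouring suffixes were far fewer, with 430 and 443 reads at 14 nt and 2108 and 1685 reads at 16 nt. Its prefixes of 11 to 15 nt summed to 453 reads in WT and 532 in KO. Neither this sequence nor the 23-nt parent matched a GENCODE transcript.

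Few of the very short reads had a miRNA as parent. Of the parents of 16 nt or more, 136 of 345 in WT and 138 of 313 in KO matched a miRNA hairpin. Parents that match a miRNA hairpin accounted for 939 very short reads in WT, 0.170% (0.160 to 0.182), and 915 in KO, 0.162% (0.152 to 0.173), although miRNA reads were 39.4% and 45.8% of the libraries. Pooled over these parents, this comes to 39.8 very short reads per 100000 parent reads in WT and 38.0 in KO. Pooled likewise, parents that match no transcript gave 9958 per 100000 in WT and 12826 in KO. Parents of 20 nt or more outside the miRNA, rRNA and other structural classes numbered 155 in WT and 127 in KO. In a check added later, 47 and 52 of them matched a miRNA hairpin with up to 2 mismatches. Counted as miRNA parents, these brought the miRNA share of very short reads to 0.174% and 0.167%. For single miRNA parents, with a piece counted under each parent that contains it, the median was 84.1 in WT and 82.5 in KO. The range was 0 to 7249 in WT and 0 to 6610 in KO. Of the miRNA parents, 27 of 136 in WT and 23 of 138 in KO had no piece of 11 to 15 nt at all. Mir10b, the most abundant, is encoded within the Hoxd cluster at chr2:74726070-74726137 (GRCm38, plus strand). Its 22-nt sequence was read 995541 times in WT and 986106 times in KO, and all its pieces of 11 to 15 nt summed to 97 and 83 reads.

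Shortened forms of Mir10b ended well above the range of the very short reads. Prefixes were read 17262 times in WT and 16905 times in KO at 21 nt, 4896 and 4507 times at 19 nt, 763 and 669 times at 18 nt, and 32 and 25 times at 17 nt. At 16 nt there were 9 and 2 reads. The 14-nt prefix rose out of this low level with 71 reads in WT and 55 in KO, whereas the forms of 13 and 15 nt had 2 and 3 reads, and 2 and 0 reads. Mir127, an imprinted miRNA, gave 9 very short reads in WT and 12 in KO for a main form of 80203 and 84569 reads. Assigned each to a single parent, 5 and 2 reads went to Mir10a and 25 and 25 to Mir99b. Among the parents that are miRNAs, Mir191 held the most very short reads, 187 in WT and 173 in KO. Next to it and Mir10b stood the X-linked Mir871 with 86 and 107 and Mir125a with 56 and 74. Mir541 gave 38 and 52, Mir183 43 and 40, and Mir148a 37 and 36. Mir143 had 23 and 26.

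When the reads were set against the beginnings of the 1738 mature miRNAs listed by RefSeq, these made up 81.8% of WT reads at 22 nt, 22.5% at 20 nt, 3.14% at 18 nt and 0.909% at 16 nt. They were 0.122% at 15 nt, 0.0299% at 12 nt and 0.590% at 11 nt, where chance matches are more frequent because the beginnings are 0.0386% of all possible sequences. The KO library gave 0.142%, 0.0349% and 0.666% at these lengths. Beginnings of miRNAs were therefore a minor component at every length from 11 to 15 nt.

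Transcripts other than miRNAs and structural RNAs accounted for 4.55% of very short reads in WT and 5.02% in KO, through 1 parent in the main. The 16-nt parent of the 3′ ladder matches Acsl6, which encodes an acyl-CoA synthetase and lies at chr11:54303798-54364756 on the plus strand of GRCm38. A sequence of 16 nt is found by chance 0.112 times in these transcripts, and no transcript of another gene was matched. The 17-nt parent ccaccacgttcccgtgg, with 1 base more at its start and 6629 reads in WT and 8528 in KO, matches Acsl6 as well. Matches of this length do not establish the origin of the 24896 very short reads in WT and 27998 in KO that have an Acsl6 parent. Gm15280, an unprocessed pseudogene on chromosome X, followed with 113 and 184 reads. A parent shared by 4632432E15Rik and 20 others gave 87 and 130. Parents with no matching transcript accounted for 14.01% of very short reads in WT and 13.01% in KO, and parents that were themselves under 16 nt for 4.92% and 5.28%. From parents of 100 reads up, those with no matching transcript accounted for 56.7% and 50.9%. Since nuclear tRNA and a full set of rRNA sequences were not analysed here, a parent without a match may still come from these RNAs.

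Ribosomal RNA appeared more clearly when the short sequences were matched themselves. Parents that match rRNA accounted for 0.259% of very short reads in WT and 0.268% in KO, with 931 and 1077 reads for CT010467.1 and 495 and 437 for the repeated genes led by Gm22109. From parents of 100 reads up the shares were 3.28% and 3.31%. In contrast, 11.6% of very short reads in WT (63851 reads) and 12.96% in KO (73245 reads) occur exactly in an annotated rRNA on either strand, a ratio of 1.13 (1.12 to 1.14). At 15 nt the shares were 14.9% and 16.1%, while the rRNAs contain 0.00462% of the possible 15-base sequences. The transcripts Gm42418, AY036118 and Lars2, the first 2 of which overlap CT010467.1, gave 11.3% and 12.3%. Copies of rRNA in the genome are many, and a match cannot be assigned to 1 of them.

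Most of these matches fell on 1 strand of 1 annotated transcript. At 11 nt, 13313 reads in WT and 15849 in KO matched the strand opposite to CT010467.1, and 81 and 78 its annotated strand. At 13 to 15 nt, 41134 reads in WT and 46378 in KO matched the opposite strand of this transcript, which is annotated on the minus strand at chr17:39846353-39848201 (GRCm38), and 8 and 4 reads matched the annotated strand. The reads matching at a single position began at 1293 different positions, but 51.9% of them in WT and 55.3% in KO began at the first base of the 5′ ladder. This 15-nt form lies at chr17:39847140-39847154 on the plus strand. On that strand the lincRNA Gm42418 is annotated at chr17:39846958-39848788, so the form matches Gm42418 in sense. AY036118 is annotated on the minus strand, and the form matches its opposite strand. The forms of 13 to 15 nt that began at the first base of the ladder summed to 21358 reads in WT and 25662 in KO (1.18, 1.16 to 1.21). The next position held cccgacccgggga at chr17:39846855-39846867, which was read 2512 times in WT and 3612 times in KO (1.42, 1.35 to 1.49) and had no parent. Every other start held under 600 reads in each library, with 541 and 455 reads at the next. The member cccgccgggca, with 2336 and 2194 reads (0.925), lies at chr17:39847482-39847492.

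Other structural RNAs gave fewer matches. Sense matches to snoRNA or scaRNA, guides of rRNA and snRNA modification, were 1.14% of very short reads in WT and 1.12% in KO. At 13 to 15 nt Snord45c gave 182 and 210 reads, Gm23663 209 and 180, and Snord32a 143 and 124. Splicing snRNAs gave 0.148% and 0.142%. At 11 nt, snoRNAs took 2.68% of WT reads while containing 2.19% of the possible sequences, and snRNAs 0.360% against 1.60%. At 15 nt the WT shares were 0.473% against 0.0101% and 0.0755% against 0.00768%. Matches of 11 nt to these RNAs therefore do not establish an origin. Hairpins, given below, took 7.48% of WT reads at 11 nt against 2.67%. Mitochondrial rRNA and tRNA gave 0.111% and 0.110%, and at 13 to 15 nt the methionine tRNA mt-Tm led with 159 and 163 reads. Annotated miRNA hairpins contained 3.10% and 3.02% of very short reads in the sense direction, far above the share through miRNA parents. At 13 to 15 nt most of these lay in Mir6240 (1496 and 1332 reads), Mir6236 (1310 and 1037) and Gm25732 (976 and 873), none of which was the hairpin of a parent above. Of the reads without a parent, 81.7% in each library occurred in none of the rRNA, miRNA, structural or mitochondrial transcripts. For the reason given above, the 81.7% can include rRNA and tRNA reads. The matched shares can include chance matches, above all at 11 nt, so they are not lower limits.

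Mature tRNAs end in CCA, which is added after transcription. Other RNA pieces can end in these bases as well. Whether the reads below come from tRNA was not tested, since no nuclear tRNA sequences were matched. The last 3 bases CCA were found on 10878 very short reads in WT, 1.97%, and on 13067 in KO, 2.31%, which placed them 15th and 14th of the 64 possible endings by abundance. Their KO/WT ratio was 1.18 (1.15 to 1.21), against 1.006 (1.002 to 1.010) for all other reads of 11 to 15 nt. It was above 1 at every length from 11 nt (1.30, 1.18 to 1.42) to 15 nt (1.11, 1.07 to 1.15). Reads of 16 to 19 nt ending in CCA had a ratio of 1.16 (1.14 to 1.18), and those of 24 to 33 nt 0.585 (0.575 to 0.595), where all others of 24 to 33 nt had 0.676. The last value rested on 1 sequence of 28 nt, tacctggttgatcctgccgactacgcca, which was read 11254 times in WT and 3864 times in KO, and without it the ratio at 24 to 33 nt was 0.702 (0.688 to 0.716). The members ending in CCA that ranked 1, 2, 3 and 6 by abundance are shown with the ending in capitals, because they went in different directions.
15 nt, first by abundance: ccatcctcgtcgCCA
15 nt, second: ctgccgactacgCCA
14 nt, next: cacgttgggcgCCA
15 nt, of lower rank: cccgaggcctctCCA

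The first was read 3044 times in WT and 3384 times in KO (1.10, 1.04 to 1.15), and the second 1446 and 1231 times (0.839, 0.777 to 0.905). The 14-nt member was read 361 and 662 times (1.81, 1.59 to 2.06), and the last 206 and 460 times (2.20, 1.86 to 2.61). The second is a suffix of that 28-nt sequence, which was its parent in WT, and the other 3 had no parent in WT. Of the 26 members ending in CCA with 100 or more reads, 19 had a ratio above 1, with a median log2 ratio of 0.19. Among all 1608 members with 100 or more reads 667 did, 41.5%, with a median of -0.06. The 4 sequences shown were chosen after their values were seen, by rank and by direction. Left out were the members of ranks 4 and 5, read 452 and 439 times (0.957) and 448 and 436 times (0.959).

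Few very short sequences differed greatly between the libraries. Among the 9636 with 10 or more reads in both libraries together, 601 were over 2-fold higher in KO, 6.24%, where 4.52% of all sequences of any length were. Over 2-fold lower were 728, 7.56%, where the share over all sequences was 22.9%. The neighbouring range of 16 to 19 nt lay close to the very short reads, with 5.88% higher and 8.46% lower. With 100 or more reads, 11 of 1608 were higher (0.684%, against 0.366% of all sequences) and 2 were lower (0.124%, against 8.70%), and at 16 to 19 nt each direction took 0.225%. No sequence of 11 to 15 nt with 100 or more reads was absent from a library. The SD of the log2 ratio over these 1608 was 0.31, against 0.57 over the 8738 sequences of all lengths that had such depth and were read in both libraries.

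The highest 5 ratios lay between 2.26 and 3.17, and 3 of them belonged to nested prefixes of 1 parent. Among those with 100 or more reads, ccctgaacgcgcc, which occurs in sense in repeated rRNA genes such as Gm22109, was read 50 times in WT and 161 times in KO (3.17, 2.30 to 4.45). Its form with 1 more C, ccctgaacgcgccc, was read 514 and 731 times. Next came cccgcccgggggc with 29 and 80 reads (2.72, 1.76 to 4.31), and ccctggcggagc with 278 and 666 reads (2.36, 2.05 to 2.72). The forms cccgcccgggggcc, with 229 and 544 reads (2.34), and cccgcccggggg, with 128 and 294 (2.26), contain or begin cccgcccgggggc. These 3 are prefixes of the 17-nt parent cccgcccgggggcccga, which was read 2927 times in WT and 3068 times in KO. The very short prefixes of that parent summed to 1841 reads in WT and 3388 in KO, whereas the parent itself changed little.

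The lowest ratios were closer to 1 and rested on fewer reads. The sequence cggaggaaaagaaac was read 69 times in WT and 34 times in KO (0.485, 0.312 to 0.742), and cggcgcgggtc 73 and 37 times (0.499, 0.327 to 0.751). Then followed gccgacttagaac with 82 and 43 reads (0.517), cccggccggcgac with 73 and 40 (0.540) and cggaactgaggcc with 66 and 37 (0.552). The highest upper bound among these 5 intervals was 0.838, and the lowest lower bound among those of the highest 5 was 1.76. Both sets were picked by their ratios, and the intervals do not allow for that choice.

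Among the remaining abundant members the ratios lay between 1.12 and 1.48. The sequence ccccgcggggcc, a prefix of a 24-nt parent, was read 2588 times in WT and 3047 times in KO (1.16), and cccgcggggccccg, a prefix of the 23-nt parent, 1798 and 2706 times (1.48, 1.40 to 1.57). The member cgacacaagggtttg, 1 base short of a 16-nt parent, was read 2575 and 2926 times (1.12). Of the 15 most abundant members, tgtctgagcgtcgct and cccgccgggca were lower in KO and the other 13 were higher. Among all 1608 members with 100 or more reads, 667 were higher, 41.5%. The 13 include overlapping forms of both leading ladders, so they are not separate observations.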

How the data were processed

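Small RNA of E16.5 testes was sequenced in 1 WT and 1 Hsp90α KO library. For each, the authors clipped the adaptor and deposited unnormalized read counts of every distinct sequence, here of 11 to 48 nt. The clipping tool and the adaptor are not given in the sources used here, so adaptor remnants among the very short sequences were not checked. Per the labels the build was mm9, but the counts carry no coordinates, and those in the text come from GENCODE M21 (GRCm38), against whose 141767 transcripts sequences of 16 nt or more were matched exactly. RefSeq sequences (GRCm38.p6) gave the mature miRNAs.

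Very short sequences were classed as prefix, suffix, inner part or none of longer sequences with 1000 or more reads in the same library, and the most-read parent of a class was kept. A parent took the first RNA class that fitted, in the order miRNA hairpin (sense), rRNA, other structural RNA (sense), other transcript, none. Counts were divided by miRNA reads. Ratios have Clopper-Pearson intervals from the conditional binomial and shares have Wilson intervals, at 95%. With 6409305 and 5589326 reads, 3 reads are 4.68e-05% and 5.37e-05% of a library.

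Sequences were named by rank: the 15 with most reads, the 2 leading at each length, the 3 leading in each class, and the 5 highest and 5 lowest ratios from 100 reads up; parent genes were the 12 with most very short reads and 5 fixed miRNAs. The members, lists and rules were chosen with earlier results of these data known. Matching of the short sequences themselves, the CCA ending, G and C content and end complementarity were added after the data were seen. Alternatives covered the normalizing total, the parent rule, the minimum of reads and counting each sequence once. The interval and matching code was tested on simulated data. The work used numba 0.67.0, scipy 1.17.1 and pandas 2.3.3 under Python 3.11.15.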

Additional observations from a re-analysis of the deposited data

How the results depend on the processing

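No paired analysis was possible because each genotype has 1 library and the labels carry no replicate numbers. The KO/WT ratio of all very short reads, 1.01, was 1.18 when divided by all reads of the library and 1.02 by reads of 20 to 23 nt. It fell below 1 with miRNA reads without Mir10b (0.995), structural RNA reads (0.991), each distinct sequence counted once (0.999) and, chosen after seeing the data, without both leading ladders (0.988), so no direction is read from it. The quotient of the 15-nt and 11-nt ratios, 0.900, was 0.943 over distinct sequences. Divided by all reads, the 15-nt ratio turned to 1.12. For reads with any parent, the ratio of 1.002 became 1.17, 1.01, 0.987 and 0.983 under the same 4 totals, 0.784 over distinct sequences, 0.994 and 1.19 with parents of 100 and 10000 reads, and 1.13 with 1 parent list. Ratios also turned for prefixes over distinct sequences (0.833) and with parents of 100 reads (0.887), for inner parts with parents of 10000 reads (1.46), and for none with miRNA reads without Mir10b (0.997), structural RNA reads (0.993), parents of 10000 reads (0.988) and 1 parent list (0.978).

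The share without a parent, 76.1% in WT and 76.3% in KO, was 27.5% and 28.7% with parents of 100 reads, 89.2% and 87.2% with 10000, and 9.09% and 9.39% with 10, the last chosen after seeing the data. It was 79.1% in both with parents of 16 nt or more, 79.1% and 76.6% with 1 parent list, 97.7% and 98.2% over distinct sequences, and 74.2% and 74.4% from 2 reads up. The share with a miRNA parent, 0.170% and 0.162%, was 0.540% and 0.470% with parents of 100 reads, 0.0793% and 0.0731% with 10000, 0.304% and 0.274% over distinct sequences, and 3.10% and 3.02% by matching the short sequence itself, added later. Sequences over 2-fold higher and lower in KO, 601 and 728, numbered 999 and 449 when divided by all reads, 11 and 2 from 100 reads up, 15 and 8 with the interval wholly past 2-fold, and 1380 and 1670 past 1.5-fold. Depth limits the rare sequences, most of which were read once, and the lack of replicates limits every ratio.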
